A study of Homo sapiens with 8 samples.

Results

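MDA-MB-453 cells treated for 48 h with 10 nM 5α-dihydrotestosterone (DHT) were compared with the same cells treated for 16 h, on 2 arrays at each time, which are 4 of the 8 arrays of the series. The members were all 19775 genes that a probe set of the Affymetrix HG-U133 Plus 2.0 array names alone, each read by its brightest probe set over the 8 arrays, and no gene was chosen by its change. MDA-MB-453 is an established human breast cancer line with luminal and apocrine features that expresses the androgen receptor. The cells of all groups were kept for 3 days in medium without phenol red and with 5% serum stripped by charcoal and dextran, which removes most steroids. They then received vehicle, or 10 nM DHT for 4, 16 or 48 h (2 arrays each, labelled as biological replicates). Vehicle and 4 h gave the earlier levels and, since 1 model was fitted to all 8 arrays, part of the estimate of spread behind every call. The vehicle arrays carry no time in the labels, so the length of DHT exposure and the time in culture cannot be told apart between 16 and 48 h. All groups are 1 cell line, and whether the replicates were separate cultures is stated no further, so p-values measure the spread between these arrays.

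DHT is the most potent natural ligand of the androgen receptor, a nuclear receptor that enters the nucleus on binding it and acts on genes with response elements built from the half-site AGAACA. In apocrine breast cells its known targets include genes of steroid handling and of secreted apocrine proteins. Some direct targets respond within hours and others take longer.

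Signals are log2 values, so a difference of 1 is a 2-fold change, and errors of a change are standard errors from limma. The array medians lay between 8.42 and 8.45. The second 16 h array stood apart on the second principal component, at 23.1 against -10.8 to 0.5 for the other arrays, and the beta-actin control probe sets, which read the 3′ and 5′ ends of one transcript, differed there by 1.52 log2 units, against 0.95 on the second 48 h array and 0.20 to 0.54 on the other arrays. A larger gap is a usual sign of shorter RNA, so counts are also given without this array where it changes them. Replicates correlated at 0.995 at 16 h and 0.997 at 48 h across genes. The mean of 26 luminal markers was 11.2 to 11.5 on every array. Markers of basal (5 measured), mesenchymal (16) and immune or endothelial cells (10) averaged 7.08 to 7.53, and 10 prostate epithelial markers 8.27 to 8.38. Of these 41 markers of other cell types, limma called 0 between 16 and 48 h, and 3 had an unadjusted p below 0.05. Over all genes these shares were 0.829% and 10.7%, so 0 of 41 is near the share of all genes.

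Between 16 and 48 h, 69 genes rose, which is 0.349% of all genes tested, and 95 fell, which is 0.480%, so that 0.829% changed in all (limma, adjusted p below 0.05 over 19775 genes). The gains, called late gains, ran from 1.36-fold to 5.14-fold with a median of 1.72, and the losses, called late losses, from 1.36-fold to 5.69-fold with a median of 1.57. At least 2-fold changes were found for 13 gains and 10 losses. Against vehicle, by comparison, 6.85% of genes were called at 16 h and 9.51% at 48 h. The call count rested on single arrays: 45 gains and 23 losses were called without the second 16 h array, 275 and 369 without the first 16 h array, 31 and 14 without the first 48 h array, and 21 and 16 without the second. Without either 4 h array the losses were 48. A fit of only the 16 and 48 h arrays gave 34 gains and 29 losses, and a test of all probe sets in place of 1 a gene gave 43 and 27. When arrays were set to equal housekeeping signal, 60 genes rose and 166 fell. Without each of the 8 arrays in turn, 19 gains and 9 losses stayed called.

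**Figure D1:**
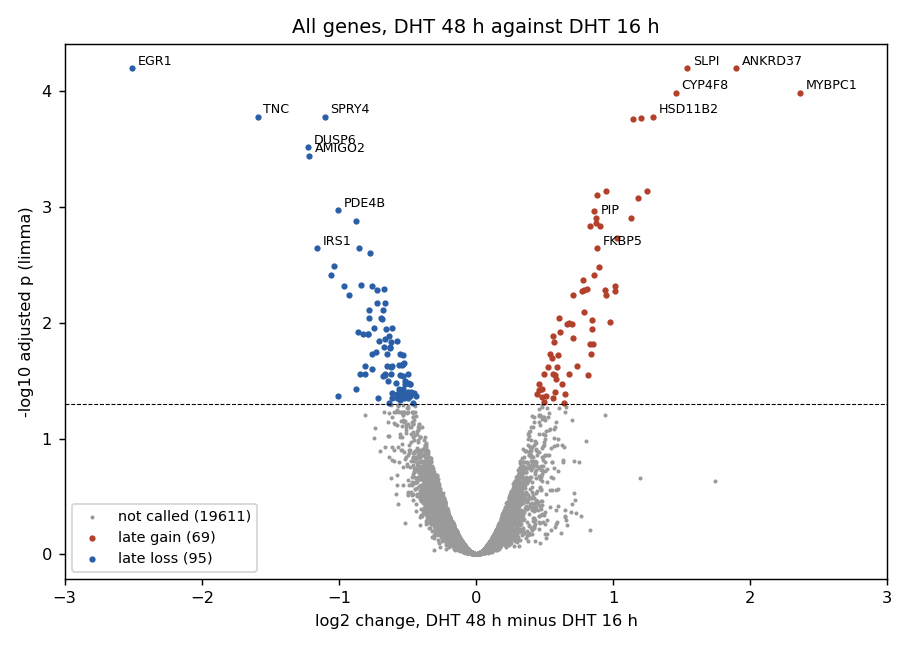
The log2 change from 16 h to 48 h of DHT (x axis) is plotted against -log10 of the adjusted p from limma (y axis) for all 19775 genes, 1 point a gene, with the dashed line at an adjusted p of 0.05. The 69 late gains lie upper right, led by MYBPC1 at 2.36, and the 95 late losses upper left, led by EGR1 at -2.51.

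Set against the change from vehicle to 16 h, the gains split into 24 genes that had already risen (stepwise rises), 36 that were not called at 16 h (late onset) and 9 that had fallen and moved back. The losses split into 37 stepwise falls, 46 of late onset and 12 genes that had risen at 16 h and moved back. At 48 h, 60 of the 69 gains and 79 of the 95 losses also differed from vehicle. The change to 16 h and the change after it share the 16 h arrays with opposite sign, so any error on those arrays adds to the returning genes and takes from the stepwise ones. Without the second 16 h array the stepwise rises were 14, the stepwise falls 15, the returns after a fall 9 (5 of them among the 9 of the full fit) and the returns after a rise 0.

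**Figure D2:**
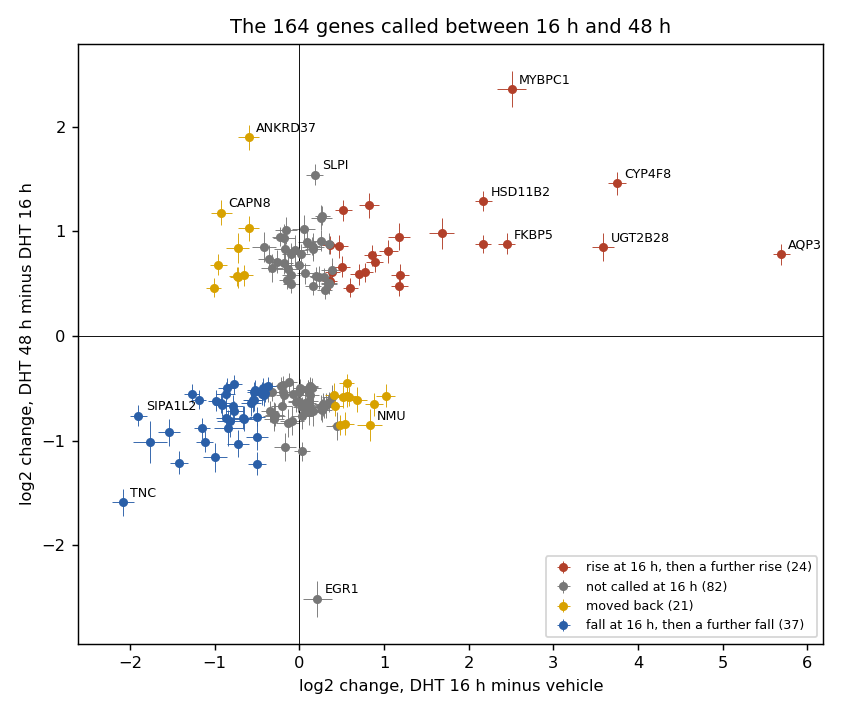
Each point is one of the 164 genes called between 16 h and 48 h of DHT, with its log2 change from vehicle to 16 h (x axis) and from 16 h to 48 h (y axis); bars are standard errors and colours give the 4 patterns. AQP3 lies far right with 5.69 by 16 h and 0.78 after it, MYBPC1 moved by 2.51 and then 2.36, and ANKRD37 fell by 0.60 before its gain of 1.90.

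The genes known to respond to androgen went on rising after 16 h in part. Of all genes tested, 0.349% rose between 16 and 48 h and 0.480% fell. Of 29 measured genes of the classical androgen response, 3 rose (FKBP5, C1orf116 and AZGP1) and 0 fell. Their median change was 0.06, against -0.011 over all genes. Of 23 apocrine genes 4 rose and 1 fell (median 0.08), and of 22 genes of steroid metabolism 3 rose and 1 fell (median 0.01). Without the second 16 h array, these counts were 2 androgen response genes higher, 2 apocrine genes higher and 1 lower, and 1 steroid gene higher and 0 lower.

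The largest late gain was MYBPC1, which encodes a myosin-binding protein of slow muscle fibres. It read 5.53 and 5.55 in vehicle, 5.66 and 5.35 at 4 h, 7.79 and 8.31 at 16 h and 10.22 and 10.61 at 48 h. Both 48 h arrays lay above both 16 h arrays, as they did in 15.9% of all genes, and these lay above all 4 earlier ones. Here the late step was 2.36 ± 0.17, or 5.14-fold (limma, adjusted p = 0.00011). MYBPC1 was not called at 4 h (-0.04, adjusted p = 0.98), so its whole measured rise fell after that time.

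PIP encodes prolactin-induced protein, a secreted marker of apocrine cells. Its signals were 9.97 and 10.05 in vehicle, 10.06 and 9.92 at 4 h, 10.36 and 10.39 at 16 h, and 11.26 and 11.23 at 48 h. The late step of 0.87 ± 0.09 (1.83-fold, adjusted p = 0.0012) was larger in size than the step from vehicle to 16 h, 0.36 ± 0.09 (adjusted p = 0.039), and the groups at 16 and 48 h did not overlap.

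The promoters of these 2 stepwise rises are shown because each holds 1 AGAACA half-site in the 250 bases before the RefSeq gene start (GRCh38.p14). Capitals mark the half-site, read as TGTTCT where it lies on the other strand. The MYBPC1 window is chr12:101594721-101594970 on the + strand, with the half-site starting 192 bases before the start, and the PIP window is chr7:143131827-143132076 on the + strand, with it 198 bases before.
MYBPC1: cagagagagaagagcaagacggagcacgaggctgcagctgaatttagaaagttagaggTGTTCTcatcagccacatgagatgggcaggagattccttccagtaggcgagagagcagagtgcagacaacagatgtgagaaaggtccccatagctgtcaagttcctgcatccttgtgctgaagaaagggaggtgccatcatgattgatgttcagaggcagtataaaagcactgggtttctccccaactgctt
PIP: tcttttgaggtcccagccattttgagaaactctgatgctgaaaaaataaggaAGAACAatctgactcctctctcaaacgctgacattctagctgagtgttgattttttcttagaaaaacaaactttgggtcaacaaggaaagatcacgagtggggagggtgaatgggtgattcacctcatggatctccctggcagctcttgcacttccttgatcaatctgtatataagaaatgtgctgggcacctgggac
Searched on both strands, AGAACA was found in 3 of the 22 stepwise rises with a promoter in the table (13.6%), 6 of 56 late gains (10.7%), 10 of 78 late losses (12.8%) and 12.4% of all 27305 promoters. The half-site was thus about as frequent among the genes that rose as among all promoters, and a match in these letters is a description, not a binding site.

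Enzymes of steroid and lipid handling stood among the largest stepwise rises. CYP4F8, a cytochrome P450 that hydroxylates fatty acids and prostaglandins, read 6.21 and 6.33 in vehicle, 5.84 and 6.03 at 4 h, 9.92 and 10.12 at 16 h and 11.44 and 11.51 at 48 h. After a 13.4-fold rise by 16 h it gained another 1.46 ± 0.11, or 2.75-fold (adjusted p = 0.00011). HSD11B2, the dehydrogenase that converts cortisol to cortisone, climbed at every time, from 7.63 and 7.85 in vehicle through 8.41 and 8.58 at 4 h and 9.90 and 9.92 at 16 h to 11.19 and 11.22 at 48 h. Its late step was 1.29 ± 0.10, or 2.45-fold (adjusted p = 0.00017). UGT2B28, which conjugates androgens to glucuronic acid, moved from 11.37 and 11.29 at 16 h to 11.99 and 12.37 at 48 h, a gain of 0.85 ± 0.13 (1.80-fold, adjusted p = 0.011) on top of a 12.1-fold rise by 16 h. SRD5A1, a 5α-reductase that makes DHT from testosterone, went from 9.81 and 9.90 to 10.34 and 10.54 (0.59 ± 0.10, adjusted p = 0.024). STS, the sulfatase that frees steroids from their sulfates, moved the other way, from 10.29 and 10.42 to 9.41 and 9.73 (-0.78 ± 0.11, adjusted p = 0.0091), and was already lower than vehicle at 16 h.

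Among the classical responders, FKBP5, a co-chaperone of steroid receptors, read 10.81 and 10.67 in vehicle, 11.72 on both 4 h arrays, 13.14 and 13.25 at 16 h, and 13.97 and 14.18 at 48 h. C1orf116, an androgen-regulated epithelial gene, stood at 8.04 and 8.0, then 8.71 and 8.72, then 10.15 and 10.23, then 11.09 and 11.06 at the same times. Neither gene had overlapping groups, and both gained 0.88 after 16 h, with a standard error of 0.10 (adjusted p = 0.0023) for FKBP5 and of 0.09 (adjusted p = 0.00079) for C1orf116. AZGP1, a secreted zinc-binding glycoprotein of apocrine and prostate cells, moved by 0.48 ± 0.10 (adjusted p = 0.044). AQP3, the water and glycerol channel with the largest rise by 16 h among the named genes, read 8.43 and 8.38 in vehicle, 10.43 and 10.55 at 4 h, 14.04 and 14.14 at 16 h, and 14.76 and 14.99 at 48 h. It gained 0.78 ± 0.10 after 16 h (adjusted p = 0.0052), in addition to 5.69 before it. KMO, an enzyme of tryptophan breakdown on the apocrine list, fell from 10.06 and 10.00 to 9.35 and 9.49 (-0.61 ± 0.09, adjusted p = 0.011).

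Other androgen-induced genes were not called after 16 h. NDRG1, a stress and differentiation gene that androgen raises, read 9.92 and 10.33 in vehicle, 12.88 and 12.94 at 16 h, and 12.99 and 12.83 at 48 h. The 2 later groups overlapped, and the change was 0.00 ± 0.13 (adjusted p = 1.0) after 6.88-fold by 16 h. CLDN8, a tight junction claudin, went from 10.54 and 10.53 to 10.96 and 11.24, which did not overlap, yet 0.57 ± 0.13 missed the threshold (adjusted p = 0.083). MYC, a transcription factor of growth genes, read 12.20 and 12.22 at 4 h, 12.05 and 11.65 at 16 h and 11.60 and 11.79 at 48 h, and its change of -0.16 ± 0.13 after 16 h was not called (adjusted p = 0.76).

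The calls of MYBPC1, CYP4F8, HSD11B2, FKBP5, C1orf116 and PIP held without each of the 8 arrays. Without the second 48 h array, calls ended for AQP3 (adjusted p = 0.07), UGT2B28 (0.097), SRD5A1 (0.20), AZGP1 (0.23) and KMO (0.057). Without the first, they ended for SRD5A1 (0.082), AZGP1 (0.25), KMO (0.15) and STS (0.11). Without the second 16 h array, they ended for UGT2B28 (0.079), SRD5A1 (0.08), AZGP1 (0.079) and STS (0.069). AZGP1 also lost its call without any other array (adjusted p = 0.065 to 0.093).

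Genes induced by low oxygen were the list with the most late gains. These genes are known targets of the hypoxia-inducible factors, which are broken down in ample oxygen and which bind the core sequence ACGTG. Of all genes tested, 0.349% rose after 16 h, 0.480% fell and 46.4% had a change above 0. Of 27 measured members of the list, 7 rose (ANKRD37, DDIT4, HILPDA, VEGFA, PFKFB3, P4HA2 and KDM3A) and 0 fell. A change above 0 was found for 23 of the 27, and the median was 0.19 against -0.011 over all genes. Without the second 16 h array 5 were called, namely ANKRD37, DDIT4, HILPDA and PFKFB3 of these 7, and PDK1 (0.76, adjusted p = 0.048). At 16 h against vehicle, 12 of the 27 were higher and 2 lower (2.55% and 4.30% over all genes), and at 48 h 18 were higher and 1 lower (3.13% and 6.38%).

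ANKRD37, a small ankyrin repeat gene known as a target of hypoxia-inducible factor 1, had the second largest late gain. It read 9.17 and 9.04 in vehicle, 8.82 and 8.80 at 4 h, 8.32 and 8.68 at 16 h, and 10.41 and 10.39 at 48 h. Both 16 h arrays were thus the lowest of the series and both 48 h arrays the highest, and the step was 1.90 ± 0.12, or 3.72-fold (adjusted p = 6.4e-05). DDIT4, an inhibitor of the mTOR kinase that stress induces, read 13.75 and 13.89 in vehicle, 13.56 and 13.61 at 4 h, 13.56 and 13.62 at 16 h, and 14.56 and 14.51 at 48 h. All 4 arrays at 4 and 16 h lay below both vehicle arrays (-0.23 at 16 h, adjusted p = 0.19), and it then gained 0.95 ± 0.09 (1.93-fold, adjusted p = 0.00074). HILPDA, which coats lipid droplets and blocks their breakdown, read 11.14 and 11.26, then 11.27 and 11.21, then 11.36 and 11.56, then 12.34 and 12.40 (0.91 ± 0.10 after 16 h, adjusted p = 0.0015).

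VEGFA, the main growth factor of blood vessels, moved from 11.65 and 11.32 at 16 h to 12.44 and 12.23 at 48 h, with the groups apart (0.85 ± 0.13, 1.80-fold, adjusted p = 0.0095). PFKFB3, which makes the activator of the glycolytic enzyme phosphofructokinase, moved from 9.18 and 9.42 to 10.08 and 10.09 (0.78 ± 0.11, adjusted p = 0.0081). VEGFA and PFKFB3 were both at their vehicle level at 16 h within the test (0.16 and -0.10, adjusted p = 0.55 and 0.68). MIR210HG is the host transcript of miR-210, a microRNA known for its response to low oxygen, and was not on the list. It read 8.65 and 8.77 in vehicle, 8.70 and 8.42 at 4 h, 9.54 and 9.51 at 16 h, and 10.92 and 10.63 at 48 h, with a late step of 1.25 ± 0.12, or 2.38-fold (adjusted p = 0.00074).

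P4HA2, a collagen prolyl hydroxylase, gained 0.61 ± 0.09 (adjusted p = 0.012), and KDM3A, a histone demethylase, gained 0.56 ± 0.11 (adjusted p = 0.045). ERO1A and CITED2, also known to respond to low oxygen, were singled out after their values were seen: ERO1A, an oxidase of the endoplasmic reticulum, gained 0.78 ± 0.10 (adjusted p = 0.0043), and CITED2, which competes with the hypoxia-inducible factors for a coactivator, gained 0.74 ± 0.13 (adjusted p = 0.024). Of the members not called, PDK1 changed by 0.57 (adjusted p = 0.098), as much as KDM3A, while SLC2A1 changed by 0.19, ADM by 0.02 and NDRG1 by 0.00. Of 18 measured glycolysis genes limma called 0 after 16 h (1 had an unadjusted p below 0.05), with a median of 0.01. Over all genes these shares were 0.829% and 10.7%, so 0 of 18 is near the share of all genes.

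ANKRD37, DDIT4, HILPDA and MIR210HG stayed called without each of the 8 arrays. Leaving out the second 48 h array ended the calls of VEGFA (adjusted p = 0.053), PFKFB3 (0.087), P4HA2 (0.07), ERO1A (0.067), CITED2 (0.21) and KDM3A (0.28). Leaving out the first ended those of VEGFA (0.15), PFKFB3 (0.10), P4HA2 (0.16), CITED2 (0.07) and KDM3A (0.22). Leaving out the second 16 h array also ended those of VEGFA (0.064), P4HA2 (0.062) and KDM3A (0.18), and KDM3A lost its call without either 4 h array (0.068) or the first 16 h array (0.061).

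Promoters of 3 of these genes held ACGTG, in capitals, within 250 bases before the RefSeq start (GRCh38.p14), and they are shown for where it lies. The ANKRD37 piece is chr4:185396679-185396708 on the + strand, inside the span of the neighbouring gene LRP2BP, and holds 3 matches on the 2 strands, 162, 161 and 143 bases before the start, of which the first 2 overlap in one palindrome. The DDIT4 window, chr10:72273712-72273923 on the + strand, holds 1 match 125 bases before, and the MIR210HG window, chr11:568458-568707 on the - strand, 1 match 170 bases before.
ANKRD37: CACGTGccagtgtttgtgtACGTGcggccg
DDIT4: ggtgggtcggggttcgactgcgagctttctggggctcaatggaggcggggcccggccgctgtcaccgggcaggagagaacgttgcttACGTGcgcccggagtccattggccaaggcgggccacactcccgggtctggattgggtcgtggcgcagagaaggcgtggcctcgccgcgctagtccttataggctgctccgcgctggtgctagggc
MIR210HG: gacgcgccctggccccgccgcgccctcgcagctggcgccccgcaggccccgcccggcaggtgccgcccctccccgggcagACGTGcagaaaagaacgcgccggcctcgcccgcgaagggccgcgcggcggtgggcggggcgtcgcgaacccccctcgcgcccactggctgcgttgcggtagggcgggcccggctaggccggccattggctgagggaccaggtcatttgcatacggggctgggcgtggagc
Of the 5 hypoxia-list gains with a promoter in the table, 2 held ACGTG (40%). The core was found in 15 of 56 late gains (26.8%), 19 of 78 late losses (24.4%) and 18.7% of all 27305 promoters, so late gains and losses held it at about the same share.

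Among the other late gains that were not called at 16 h against vehicle were SLPI, S100A10, FMO5 and ZNF175. SLPI, a secreted inhibitor of neutrophil proteases, read 9.14 and 9.31 in vehicle, 8.98 and 9.05 at 4 h, 9.31 and 9.51 at 16 h, and 10.96 and 10.94 at 48 h. All 6 earlier arrays lay below both 48 h arrays, and the gain was 1.54 ± 0.10, or 2.91-fold (adjusted p = 6.4e-05). S100A10, the annexin A2 partner that carries membrane proteins to the cell surface, read 11.34 and 11.41, 11.39 and 11.30, 11.61 and 11.66, and 12.71 and 12.86 at the same times (1.15 ± 0.09 after 16 h, adjusted p = 0.00018). FMO5, a flavin monooxygenase, rose from 7.26 and 7.19 at 16 h to 8.22 and 8.49 (1.13 ± 0.12, adjusted p = 0.0012), and ZNF175, a zinc finger protein, from 9.40 and 9.56 to 10.39 and 10.60 (1.02 ± 0.14, adjusted p = 0.0054).

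S100P, a calcium-binding protein of glandular tumours, had already moved a little by 16 h. It read 8.10 and 8.18 in vehicle, 8.14 and 8.11 at 4 h, 8.75 and 8.57 at 16 h, and 9.92 and 9.81 at 48 h, so that its late step of 1.20 ± 0.10 (2.30-fold, adjusted p = 0.00017) followed an earlier one of 0.52. ADRA2A, an adrenergic receptor, rose from 8.77 and 8.53 to 9.38 and 9.88 (0.98 ± 0.15, adjusted p = 0.0098), and VLDLR, a lipoprotein receptor, from 8.27 and 8.20 to 9.26 and 9.10 (0.95 ± 0.13, adjusted p = 0.0058). VLDLR was the 1 called member of 29 genes of the ATF4 stress response. MATR3, a nuclear matrix protein, gained 1.01 ± 0.13 (adjusted p = 0.0048) by a dim probe set that read 5.11 to 6.44 on the 8 arrays. ATG12, a conjugation protein of autophagy, gained 0.65 ± 0.13 (adjusted p = 0.042) as the 1 called of 28 lysosome and autophagy genes, and MGST2, a glutathione transferase of membranes, gained 0.50 ± 0.10 (adjusted p = 0.049) as the 1 called of 29 glutathione and oxidative stress genes.

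The calls of SLPI, S100A10, S100P and FMO5 held without each array. Those of ZNF175 (adjusted p = 0.087), ADRA2A (0.07), VLDLR (0.053) and MATR3 (0.061) ended without the second 48 h array, that of VLDLR also without the first (0.11), and that of ADRA2A also without the second 16 h array (0.079). MGST2 lost its call without any 1 of the 8 arrays (adjusted p = 0.064 to 0.26), and ATG12 without any but the first 16 h array (0.07 to 0.29).

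**Figure D3:**
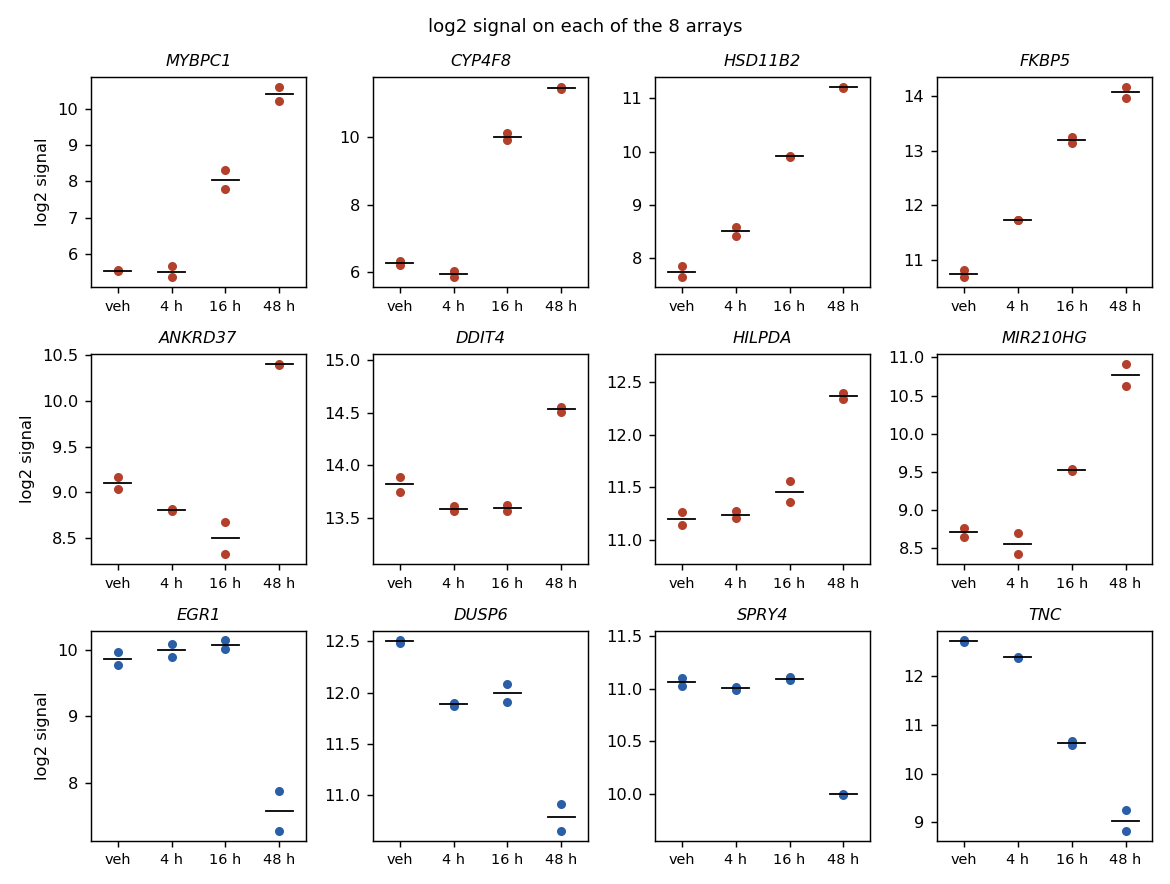
The log2 signal (y axis) of 12 genes is shown on each of the 8 arrays (points) with the group mean (line) in vehicle and after 4, 16 and 48 h of DHT. MYBPC1, CYP4F8, HSD11B2 and FKBP5 climb in steps, ANKRD37, DDIT4 and HILPDA rise after 16 h, EGR1 and SPRY4 fall after 16 h, and TNC falls in 2 steps.

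Among the late losses, the outputs and feedback brakes of the ERK kinase pathway stood out by size. ERK relays growth factor signals to the nucleus, where it raises transcription factors such as EGR1 and its own inhibitors of the DUSP and SPRY families. The median of 22 measured genes of ERK feedback and output was -0.15, and of all genes 0.480% fell and 0.349% rose. Of the 22, 4 fell (EGR1, DUSP6, SPRY4 and DUSP4) and 0 rose. That count was 3 without the second 16 h array. At 16 h against vehicle 4 of the 22 were lower, and at 48 h 8 were, against 4.30% and 6.38% of all genes.

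EGR1, a zinc finger transcription factor that growth factors induce within minutes, had the largest change of all called genes. It read 9.96 and 9.77 in vehicle, 9.89 and 10.09 at 4 h, 10.01 and 10.14 at 16 h, and 7.87 and 7.27 at 48 h. The 6 earlier arrays all lay above both 48 h arrays (in 21.4% of all genes both 16 h arrays did so), and the loss was -2.51 ± 0.17, or 5.69-fold (adjusted p = 6.4e-05). Its other probe sets gave -1.62 ± 0.12 and -0.34 ± 0.09. SPRY4, a Sprouty inhibitor of receptor signalling, behaved in the same way, with 11.10 and 11.03, 10.99 and 11.02, 11.08 and 11.11, and then 10.00 and 9.99 (-1.10 ± 0.09, 2.14-fold, adjusted p = 0.00017).

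DUSP6, the phosphatase that switches off ERK in the cytoplasm, had already fallen from vehicle. It read 12.51 and 12.49 in vehicle, 11.87 and 11.90 at 4 h, 11.91 and 12.08 at 16 h, and 10.64 and 10.91 at 48 h, and all 3 of its probe sets fell by 1.13 to 1.27 after 16 h. By the probe set used here, the step was -1.22 ± 0.11, or 2.33-fold (adjusted p = 0.00031). DUSP4, a nuclear phosphatase of the same family, read 9.52 and 9.53 in vehicle, 8.97 and 9.01 at 4 h, 9.47 and 9.72 at 16 h, and 8.92 and 8.88 at 48 h (-0.69 ± 0.10, adjusted p = 0.0091). Its 48 h level lay close to that at 4 h, and it counted as a returning gene when 4 h was taken as the earlier level. The other members were not called: ETV5 changed by -0.34, IER3 by -0.30, SPRY2 by 0.01 and FOS by 0.31.

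The immediate early genes, which cells switch on first after a stimulus, did not move in one direction. Of 24 measured, 3 fell (EGR1, NR4A2 and JUND) and 1 rose (JUN), with a median of -0.03, and without the second 16 h array 1 fell and 0 rose. JUN, a subunit of the transcription factor AP-1, read 10.69 and 10.53 in vehicle, 10.89 and 10.88 at 4 h, 10.48 and 10.38 at 16 h, and 11.02 and 11.24 at 48 h (0.70 ± 0.11, adjusted p = 0.010). JUND, another AP-1 subunit, read 13.11 and 13.34 at 16 h and 12.66 and 12.67 at 48 h (-0.56 ± 0.10, adjusted p = 0.028), so these paralogues changed in opposite directions. NR4A2, an orphan nuclear receptor, moved from 7.0 and 7.03 to 6.28 and 6.52 (-0.61 ± 0.12, adjusted p = 0.041).

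EGR1, SPRY4 and DUSP6 stayed called without each of the 8 arrays. DUSP4, NR4A2 and JUND lost their calls without the second 16 h array (adjusted p = 0.061, 0.21 and 0.20), without the first 48 h array (0.091, 0.33 and 0.22) and without the second (0.091, 0.087 and 0.17). JUN lost its call without the second 16 h array (0.076) and without the second 48 h array (0.11). NR4A2 and JUND also lost theirs without either 4 h array (0.086 and 0.063), and JUND without either vehicle array (0.052).

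The EGR1 promoter is shown because it holds 2 CArG boxes, in capitals, the sequence that the serum response factor binds, searched on both strands. The window is chr5:138465229-138465478 on the + strand (RefSeq, GRCh38.p14), and the boxes start 105 and 83 bases before the gene start.
EGR1: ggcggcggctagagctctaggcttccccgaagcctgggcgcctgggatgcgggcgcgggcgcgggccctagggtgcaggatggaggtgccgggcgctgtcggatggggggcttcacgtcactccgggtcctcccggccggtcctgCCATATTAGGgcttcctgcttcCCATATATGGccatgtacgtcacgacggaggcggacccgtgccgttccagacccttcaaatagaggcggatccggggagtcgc
A CArG box within 250 bases was found in 1.14% of all promoters, in 2 of 56 late gains (3.57%) and in 2 of 78 late losses (2.56%).

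Several late losses were second steps of a fall that had begun by 16 h. TNC, the matrix protein tenascin C, read 12.70 and 12.73 in vehicle, 12.40 and 12.37 at 4 h, 10.59 and 10.67 at 16 h, and 8.82 and 9.26 at 48 h. The 4 h arrays lay a little lower than vehicle (-0.33, adjusted p = 0.56), and each later group lay below the one before it, with a late step of -1.59 ± 0.13 (3.01-fold, adjusted p = 0.00017), and lay 12.8-fold below vehicle at 48 h. AMIGO2, an adhesion protein, read 10.97 and 10.87, 10.03 and 9.84, 9.42 and 9.58, and 8.19 and 8.37 at these times (-1.21 ± 0.11, 2.32-fold, adjusted p = 0.00037). IRS1, the adaptor that couples the insulin and IGF1 receptors to PI3 kinase, read 10.51 and 10.55, 9.78 and 9.83, 9.52 and 9.53, and 8.12 and 8.62 (-1.16 ± 0.14, 2.23-fold, adjusted p = 0.0023). PDE4B, a phosphodiesterase that breaks down cyclic AMP, stood at 10.01 and 9.87 in vehicle, 8.81 and 8.59 at 4 h, 8.80 and 8.85 at 16 h and 7.87 and 7.76 at 48 h. It thus fell early, paused between 4 and 16 h, and fell again by 1.01 on the log2 scale (SE 0.10, adjusted p = 0.0011).

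DOCK2, an activator of the GTPase RAC, and PHLDB2, which anchors microtubules at the cell edge, went from 6.40 and 6.36 to 5.55 and 5.20 and from 6.57 and 6.96 to 5.92 and 5.76 (adjusted p = 0.043 and 0.0058). Dimmer probe sets changed by -0.06 for DOCK2 and by -0.19 to 0.04 for PHLDB2. CTNND2, a catenin of cell junctions, fell from 7.97 and 8.01 to 7.05 and 7.17 (-0.88 ± 0.10, adjusted p = 0.0013), while one other probe set of the gene changed by 0.10 and another by -0.72. TP53INP1, a stress gene that p53 induces, fell from 10.23 and 10.62 to 9.56 and 9.37 (-0.96 ± 0.13, adjusted p = 0.0048) and was the 1 called of 20 p53 target genes. Dimmer TP53INP1 probe sets changed by -0.0 and -0.03. TUBB2A, a beta tubulin, fell by 0.88 on the log2 scale (adjusted p = 0.038), and CHST1, a sulfotransferase of keratan sulfate that had not been called at 16 h, changed by -1.06 ± 0.13 (adjusted p = 0.0039). A dimmer CHST1 probe set changed by -0.07. Of 23 YAP and TAZ targets, which respond to cell density and tension, 2 fell, AMOTL2 (-0.78 ± 0.11, adjusted p = 0.0078) and AJUBA (-0.55 ± 0.09, adjusted p = 0.019), with a median of -0.15, and 0 were called without the second 16 h array. PALLD, an actin-bundling protein, had fallen 13.5-fold by 16 h and changed by -0.60 ± 0.13 after it, short of the threshold (adjusted p = 0.059).

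The calls of TNC, AMIGO2, IRS1, PDE4B and CTNND2 held without each array. Without the second 48 h array the adjusted p was 0.32 for DOCK2, 0.087 for PHLDB2, 0.072 for TP53INP1, 0.13 for TUBB2A, 0.061 for CHST1, 0.091 for AMOTL2 and 0.07 for AJUBA. Without the first 48 h array it was 0.16 for DOCK2, 0.32 for TUBB2A, 0.062 for CHST1, 0.082 for AMOTL2 and 0.21 for AJUBA. Without the second 16 h array it was 0.19 for DOCK2, 0.16 for TUBB2A, 0.057 for AMOTL2 and 0.067 for AJUBA. DOCK2 also lost its call without the first 16 h array (0.06), both DOCK2 and TUBB2A without either vehicle array (0.073 and 0.066), and TUBB2A without either 4 h array (0.071).

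Genes that define luminal breast cells fell in part, where 0.480% of all genes fell and 0.349% rose. Of 26 measured, 4 fell and 0 rose, with a median of -0.06, but 1 was called without the second 16 h array. TFF1, a secreted trefoil peptide, read 10.19 and 10.37 in vehicle, 10.11 and 9.81 at 4 h, 9.43 and 9.70 at 16 h, and 8.51 and 8.55 at 48 h (-1.03 ± 0.13 after 16 h, 2.05-fold, adjusted p = 0.0032). The other 3 are transcription factors of the luminal lineage. GATA3 moved from 14.12 and 14.22 to 13.61 and 13.68 (-0.53 ± 0.09, adjusted p = 0.022), TFAP2A from 13.19 and 13.36 to 12.70 and 12.73 (-0.56 ± 0.10, adjusted p = 0.023), and FOXA1 from 12.23 and 12.25 to 11.64 and 11.78 (-0.53 ± 0.10, adjusted p = 0.029). These remained bright signals, the changes were 1.44-fold to 1.48-fold, and in no case did the 16 and 48 h arrays overlap. Over all genes, both 48 h arrays lay below both 16 h arrays in 21.4%. FOXA1 had read 11.91 and 11.92 at 4 h, and limma did not call its 48 h level against that (-0.20, adjusted p = 0.31). All 4 calls ended without the first 48 h array (adjusted p = 0.061 for TFF1, 0.21 for GATA3, 0.21 for TFAP2A and 0.27 for FOXA1) and without the second (0.053, 0.10, 0.13 and 0.09). Those of GATA3, TFAP2A and FOXA1 ended also without the second 16 h array (0.15, 0.17 and 0.16) and without either 4 h array (0.057, 0.057 and 0.07). A second FOXA1 probe set changed by 0.10 ± 0.23.

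The 9 genes that returned after a fall at 16 h were ANKRD37, CAPN8, ANO1, COBL, RRM2, TRIM29, TIMP1, CEP152 and TINCR. With the 4 h level in place of vehicle (1.28% of all genes were higher at 16 h than at 4 h and 1.77% lower) there were 7, of which 6 were in both sets (CAPN8, CEP152, RRM2, TIMP1, TINCR and TRIM29) and JUN was added. At 48 h, ANKRD37 and ANO1 differed from vehicle on its far side and TINCR on the near side, while the other 6 were not called against it.

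CAPN8, a calcium-dependent protease of mucous epithelia, read 9.78 and 9.92 in vehicle, 9.57 and 9.55 at 4 h, 8.77 and 9.09 at 16 h, and 10.19 and 10.03 at 48 h. It gained 1.18 ± 0.12 (2.26-fold, adjusted p = 0.00084) after a fall of 0.92 by 16 h (adjusted p = 0.00082). ANO1, a calcium-activated chloride channel, read 9.77 and 9.55, 9.35 on both 4 h arrays, 9.06 and 9.05, and 9.93 and 10.24 (1.03 ± 0.12, adjusted p = 0.0019). RRM2, the small subunit of the reductase that makes deoxyribonucleotides for DNA synthesis, read 13.38 and 13.36 in vehicle, 13.23 and 13.27 at 4 h, 12.53 and 12.28 at 16 h, and 13.07 and 13.11 at 48 h. Its gain of 0.68 ± 0.10 (adjusted p = 0.010) undid 70.7% of the fall by 16 h. A second RRM2 probe set (mean signal 11.89) changed by 0.29 ± 0.11.

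TIMP1, an inhibitor of matrix metalloproteases, fell from 10.71 and 10.80 in vehicle to 9.99 and 10.05 at 16 h and stood at 10.57 and 10.60 at 48 h (0.57 ± 0.09, adjusted p = 0.015). COBL, an actin nucleator, gained 0.84 ± 0.14 (adjusted p = 0.019), TRIM29, a tripartite motif protein, 0.58 ± 0.10 (adjusted p = 0.028), and CEP152, a scaffold of centriole duplication, 0.56 ± 0.10 (adjusted p = 0.028). TINCR, a long noncoding RNA of epidermal differentiation, undid 45.6% of its fall (0.46 ± 0.09, adjusted p = 0.034), but another probe set of it changed by -0.02. Both 48 h arrays lay above both 16 h arrays in each of these 9 genes, which were chosen as called higher at 48 h. Over all genes 15.9% showed this order.

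Leaving out arrays was checked gene by gene for the late call only, not for the fall at 16 h that the class also needs. The late calls of ANKRD37, CAPN8 and ANO1 held without each of the 8 arrays. Each of the other 6 ended without either 48 h array, at an adjusted p of 0.11 and 0.096 for RRM2 (first and second array left out), 0.16 and 0.17 for COBL, 0.14 and 0.12 for TIMP1, 0.28 and 0.07 for TRIM29, 0.17 and 0.19 for CEP152, and 0.23 and 0.17 for TINCR. Leaving out the second 16 h array also ended those of RRM2 (0.067), TIMP1 (0.06), TRIM29 (0.18) and TINCR (0.15). Calls also ended without either 4 h array for TRIM29 (0.067), CEP152 (0.063) and TINCR (0.076), without the first 16 h array for CEP152 (0.053), and without either vehicle array for TINCR (0.059).

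The 12 genes that returned after a rise were NMU, SRSF6, TRIB1, PPP1R10, SNHG17, PEX10, CCDC85B, DUSP2, DDX28, NRARP, NCOA5 and IMP3. With 4 h as the earlier level there were 6, namely NMU, SRSF6 and IMP3 in both sets, and DUSP4, ARRDC4 and PFN2. The class held 0 genes without the second 16 h array.

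NMU encodes neuromedin U, a secreted neuropeptide. It read 9.90 and 9.77 in vehicle, 9.90 and 9.84 at 4 h, 10.37 and 10.95 at 16 h, and 9.83 and 9.80 at 48 h, so that only the 16 h arrays stood out and differed from each other by more than any other pair. The loss of 0.85 on the log2 scale (SE 0.15, adjusted p = 0.028) took it back to its vehicle level. SRSF6, a splicing factor of the SR family, read 11.17 and 11.28, 11.25 and 11.28, 11.60 and 11.81, and then 10.89 and 10.81, below every earlier array (-0.85 ± 0.10, 1.81-fold, adjusted p = 0.0023). A second, dimmer SRSF6 probe set changed by 0.10 ± 0.21.

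TRIB1, a pseudokinase that guides proteins to degradation, read 9.93 and 9.84 in vehicle, 10.37 and 10.33 at 4 h, 10.27 and 10.57 at 16 h, and 9.55 and 9.61 at 48 h (-0.84 ± 0.11, adjusted p = 0.0047). Its 2 dimmer probe sets changed by 0.20 and 0.14. DUSP2, a nuclear MAP kinase phosphatase, read 8.96 and 9.10, 9.56 and 9.58, 9.65 and 9.60, and 9.01 and 9.08 (-0.58 ± 0.09 after 16 h, adjusted p = 0.014). It lay above vehicle on both 4 h arrays (0.54, adjusted p = 0.054) and ended at its vehicle level. TRIB1 lay 0.30 below vehicle at 48 h, which limma did not call (adjusted p = 0.12). PPP1R10, which holds protein phosphatase 1 in the nucleus, read 11.70 and 11.75 at 16 h and 11.10 and 11.01 at 48 h (-0.67 ± 0.09, adjusted p = 0.0051).

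SNHG17, a noncoding host gene of small nucleolar RNAs, fell by 0.65 on the log2 scale (adjusted p = 0.019), which undid 74.0% of its rise. NRARP, a target and limiter of Notch signalling, undid 56.5% (-0.57 ± 0.11, adjusted p = 0.045) and was still above vehicle at 48 h (0.44, adjusted p = 0.032). PEX10, a ubiquitin ligase of peroxisomes, DDX28, a mitochondrial RNA helicase, and CCDC85B, a coiled-coil protein, changed by -0.61, -0.57 and -0.58 (adjusted p = 0.045, 0.044 and 0.033). Another CCDC85B probe set changed by 0.24. The last 2, outside the rule for named genes and given to complete the class, were IMP3, of the complex that processes ribosomal RNA (-0.45, adjusted p = 0.040), and NCOA5, a nuclear receptor coactivator (-0.56, adjusted p = 0.042).

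No late call among these 12 held without every array, and the rise at 16 h was not checked gene by gene in this way. SRSF6 and PPP1R10 lost theirs without the second 48 h array alone (adjusted p = 0.053 and 0.068), and TRIB1 without either 48 h array (0.082 and 0.053). Without the first 48 h array the adjusted p was 0.22 for NMU, 0.18 for SNHG17 and 0.17 for DUSP2, without the second it was 0.19, 0.12 and 0.087, and without the second 16 h array it was 0.08, 0.13 and 0.063. PEX10, CCDC85B, DDX28, NRARP, NCOA5 and IMP3 lost their calls without every array other than the first 16 h array, at adjusted p of 0.053 to 0.35, and NMU also without either 4 h array (0.063).

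**Figure D4:**
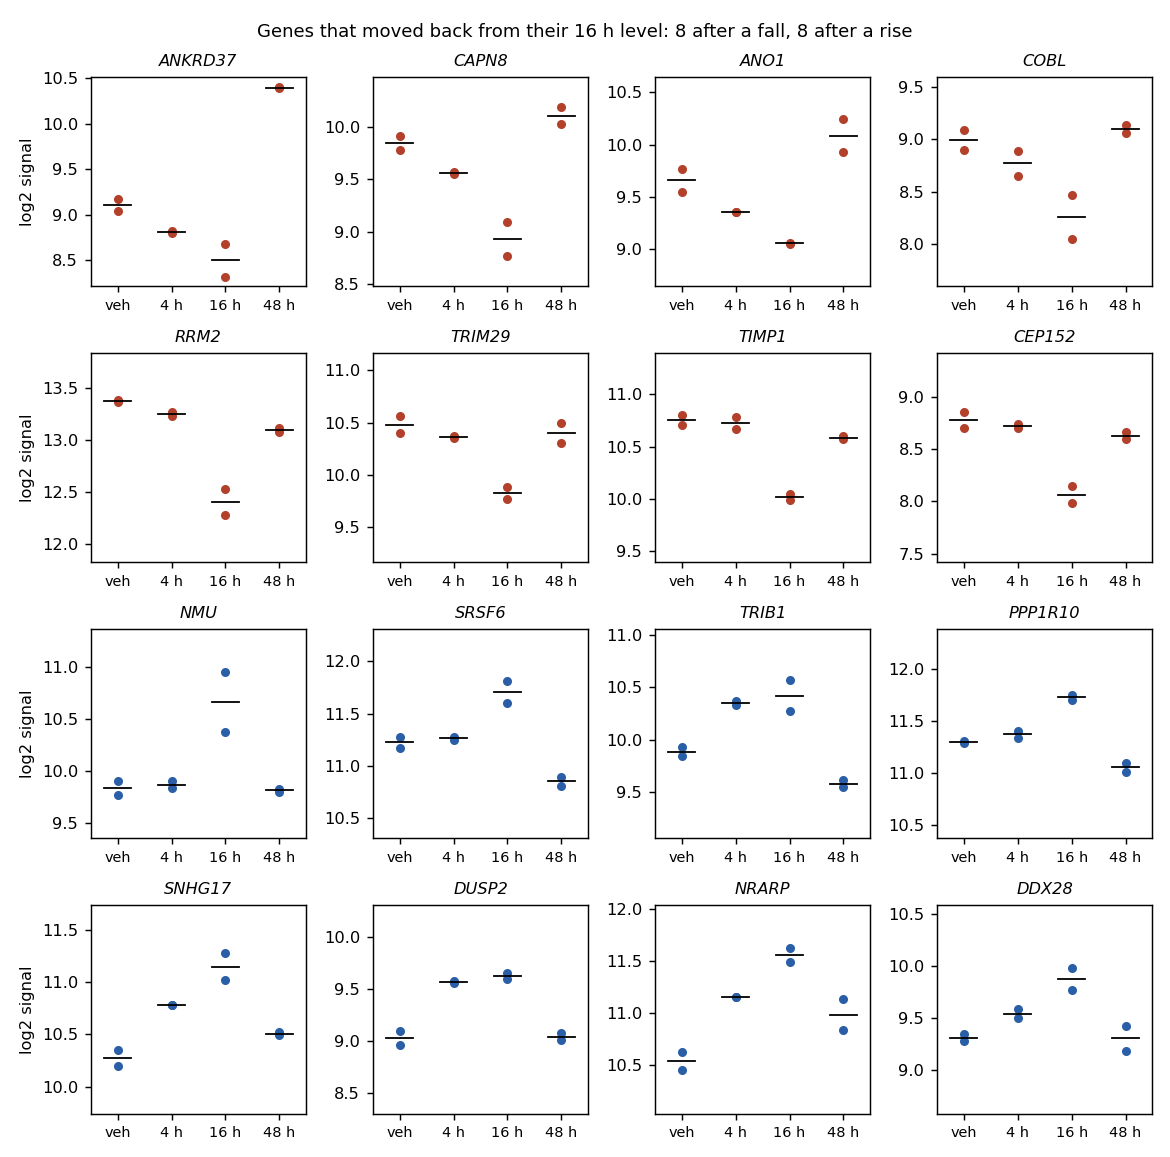
The log2 signal (y axis) of 16 genes that moved back from their 16 h level is shown on each of the 8 arrays (points) with the group mean (line) in vehicle and after 4, 16 and 48 h of DHT. The 8 genes that had fallen dip at 16 h, such as RRM2 at 12.53 and 12.28, and the 8 that had risen have their highest mean there, such as NMU at 10.37 and 10.95. TRIB1 and DUSP2 were already nearly as high at 4 h.

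Of the genes on the G1/S and G2/M lists, RRM2 alone was called between 16 and 48 h. Of 37 genes of the G1/S transition and DNA replication, 16 were lower than vehicle at 16 h and 11 at 48 h. Over all genes, 4.30% were lower than vehicle at 16 h and 6.38% at 48 h. Between the 2 times RRM2 rose, 29 of the 37 G1/S genes had a change above 0 (46.4% of all genes did) and the median was 0.10. RRM2 lost its call without the second 16 h array. Of 38 genes of G2 and mitosis, 29 were lower than vehicle at 16 h and 33 at 48 h. After 16 h limma called 0 of them (0.829% of all genes) and 6 had an unadjusted p below 0.05 (10.7%), with a median of -0.09. The mean of these 38 genes was 10.51 on the first and 10.84 on the second 16 h array, and 10.56 and 10.61 on the 48 h arrays, so the groups overlapped and the direction of the difference rested on the second 16 h array. CCNA2, the cyclin of S phase and G2, read 11.85 and 11.68 in vehicle, 10.94 and 10.61 at 16 h and 11.03 and 10.92 at 48 h, and the later groups overlapped (0.20 ± 0.12, adjusted p = 0.63). CCNB1, the mitotic cyclin, and MKI67, the proliferation antigen, changed by -0.13 ± 0.11 and 0.01 ± 0.11 after 16 h (adjusted p = 0.77 and 0.99), after falls of 0.62 and 0.67 before it, while a second CCNB1 probe set changed by -0.48 ± 0.19.

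Of 27 genes of ribosome biogenesis, which MYC is known to raise, 11 were higher than vehicle at 16 h and 4 at 48 h. Over all genes, 2.55% were higher than vehicle at 16 h and 3.13% at 48 h. Between the 2 times none was called by limma (0 of 27, 9 at an unadjusted p below 0.05, as had 10.7% of all genes), although 23 had a change below 0, as had 53.6% of all genes, and the median was -0.17. The response to TGF-beta and BMP had the lowest median of the lists, -0.24 over 25 genes, again with 0 called and 13 at an unadjusted p below 0.05, against 10.7% of all genes. A p that misses the threshold does not show that these genes were unchanged. Of 28 integrin, laminin and matrix genes, TIMP1 rose and TNC fell (median 0.05), and without the second 16 h array TNC alone was called. In all, 25 of the 39 lists had no called member, among them those of oxidative phosphorylation, cholesterol and fatty acid synthesis, interferon response, antigen presentation and WNT signalling. The 530 measured genes of these lists were uncalled by definition, and 86 of them had an unadjusted p below 0.05, against 10.7% of all genes.

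**Figure D5:**
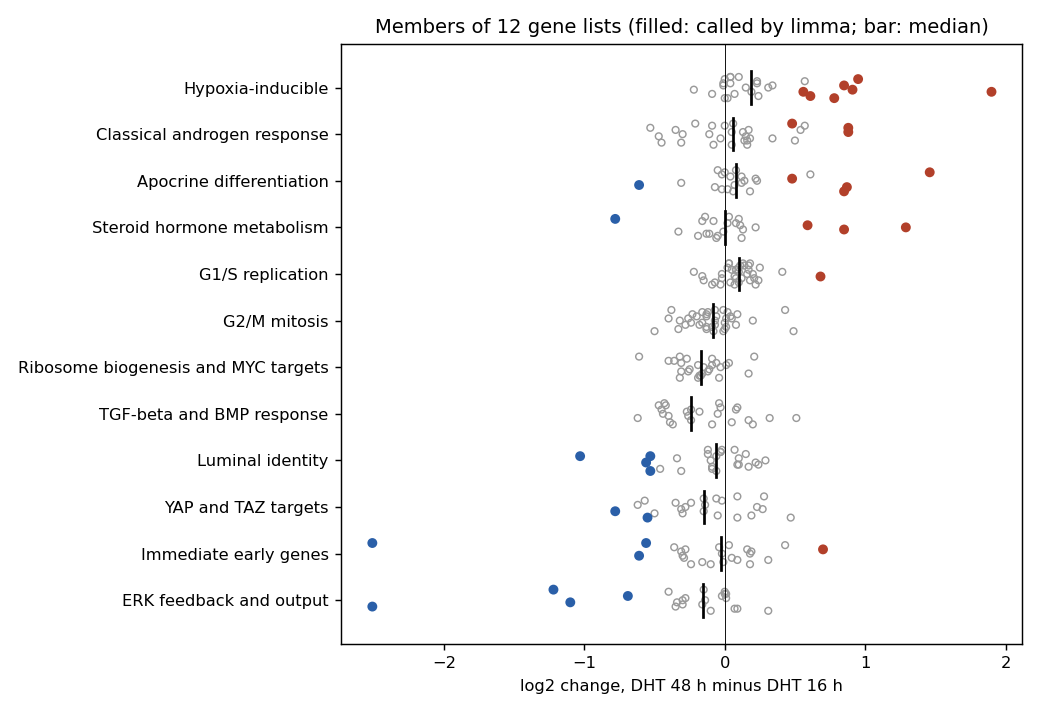
Each circle is a member of one of 12 gene lists, placed by its log2 change from 16 h to 48 h of DHT (x axis), filled where limma called it and open where it did not, with a bar at the list's median. The hypoxia list has 7 filled circles to the right, the ERK list 4 to the left, and the lists of G2/M, ribosome biogenesis and TGF-beta none.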

How the data were processed

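The log2 signals were those the authors deposited, normalised by RMA (robust multi-array average) per the submitters' processing notes, which name no version. The raw array files were not used here, and no further normalisation was applied. Of 54675 probe sets, 62 were controls, 41091 name 1 gene, 1801 several and 11721 none. Each of 19775 genes was read by its probe set with the highest mean over the 8 arrays; 5716 were read by an _x_at or _s_at probe set, which can match several transcripts. No dim gene was removed, so low signals are limited by background and all values by the number of arrays.

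A model of 4 group means used every array (limma 3.58.1, run in R 4.3.3, with 4 residual and 7.21 prior degrees of freedom), with two-sided tests and Benjamini-Hochberg adjustment over all genes, and a gene was called at an adjusted p below 0.05. The smallest exact permutation p for 2 arrays against 2 is 0.333, so none was run. The replicate number was not in the model, since the labels tie it to nothing shared. On data simulated for the 48 h against 16 h comparison (19775 genes), 88.1% of changes of 1 log2 unit and 37.9% of changes of 0.5 were called. Only a small part of these genes was changed, noise was independent between arrays, and no array stood apart as the second 16 h array did. The shares therefore hold for that setting, not for these arrays.

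The comparison, the 39 gene lists (865 genes measured) and the rules were chosen with earlier results of these data known. Named were the 14 highest and 14 lowest called changes, up to 10 of each returning class and 6 of each stepwise class by size, up to 5 called members of each list, and FKBP5, AQP3, CLDN8, UGT2B28, MYC, NDRG1, PALLD, PIP, CCNB1, CCNA2 and MKI67. Promoters came from RefSeq (GRCh38.p14), which held 134 of the 164 called genes. Alternatives were other array sets, weights, scalings, probe set rules, variance models, thresholds and earlier levels.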

Additional observations from a re-analysis of the deposited data

Results flagged for a closer look

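For 3 genes the effects against vehicle at 16 h and at 48 h were both called by limma with opposite signs, and the difference between the 2 times was itself called. ANKRD37 was lower than vehicle at 16 h (-0.60, adjusted p = 0.011) and higher at 48 h (1.30, adjusted p = 3.5e-05), a difference of 1.90 (adjusted p = 6.4e-05). ANO1 was lower at 16 h (-0.60, adjusted p = 0.0097) and higher at 48 h (0.43, adjusted p = 0.043), a difference of 1.03 (adjusted p = 0.0019). SRSF6 was higher at 16 h (0.48, adjusted p = 0.015) and lower at 48 h (-0.38, adjusted p = 0.038), a difference of -0.85 (adjusted p = 0.0023). For ANKRD37 and ANO1 the difference kept its call without each of the 8 arrays, while that of SRSF6 ended without the second 48 h array (adjusted p = 0.053). Leaving out arrays was checked gene by gene for the difference only, not for the effects against vehicle that the opposite signs also need. Without the second 16 h array, SRSF6 did not count as returning after a rise. A dimmer ANKRD37 probe set (mean signal 5.02) changed by -0.10 ± 0.13.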

How the results depend on the processing

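In a fit of only the arrays of the groups compared there were 34 late gains, 29 late losses, 5 returns after a rise and 22 stepwise falls. Array weights gave 7 returns after a rise. With 2 arrays a group they are equal within a group by construction, so they could not single out the second 16 h array. The beta-actin 3′ to 5′ difference as a covariate gave 4 returns after a rise and 14 after a fall. Equal housekeeping signal gave 166 losses and 24 returns after a rise. Without _x_at and _s_at probe sets there were 59 losses and 5 returns after a rise, and CTNND2 (0.10), CCDC85B (0.24) and TINCR (-0.02) turned sign through another probe set. With all probe sets tested there were 43 gains, 27 losses, 4 returns after a rise, 14 stepwise rises and 11 stepwise falls. A trended, robust variance gave 23 returns after a rise and 14 after a fall. At an adjusted p below 0.01 there were 34 gains, 25 losses, 0 returns after a rise, 2 after a fall, 14 stepwise rises and 12 stepwise falls. With 4 h as the earlier level there were 6 returns after a rise and 18 stepwise falls.

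Leaving out 1 array at a time gave 21 to 275 gains, 14 to 369 losses, 0 to 106 returns after a rise, 3 to 168 after a fall, 8 to 22 stepwise rises and 8 to 40 stepwise falls; a lone array was then assumed to vary like the other groups. The extremes came without the 16 h and 48 h arrays, and the cause was not tested. With the replicate number as a block there were 63 gains, 72 losses, 11 and 8 returns and 21 and 28 steps, and 7 named genes lost their call; same-numbered 16 and 48 h arrays deviated together at 0.196 but other groups at -0.244 to 0.162, so the number was not taken as a pairing. Of 69 called named genes, 24 stayed called without each array. Uncalled genes near 0 turned sign: MYC (-0.36 to 0.05 without 1 array), CCNB1 (-0.28 to 0.02 without 1 array, highest without the second 16 h array), NDRG1 (-0.04 with equal housekeeping signal, -0.08 to 0.08 without 1 array, below 0 without the first 16 h or 48 h array) and MKI67 (-0.04 and -0.08 in the same settings). Of 85 other probe sets of called named genes, 69 had the same sign, 7 were called the same way and 0 the opposite way.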
